A study of Mus musculus with 6 samples.

Results

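Sense overlapping circRNAs are rings of RNA that lie on the same strand as a known gene but that the array's annotation files under neither the exonic nor the intronic class. All probes carrying this class in the deposited table of circRNAs lower in HuD KO, in the deposited table of circRNAs higher in HuD KO, or on the list of circRNAs bound by HuD were taken, each once. This gave 421 circRNAs from 395 named host genes, out of 3056 circRNAs with a listed class and 14236 circRNA probes on the array. Of the 421, 235 stood in the lower table, 131 in the higher table and 63 on the HuD-bound list, with 4 shared between the bound list and the lower table and 4 between the bound list and the higher table. By comparison, 2334 listed circRNAs were exonic and 155 intronic.

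Striatum RNA from adult C57BL6 males was hybridized with 1 array per sample, 3 samples from HuD KO (Elavl4-/-) mice and 3 from WT littermates. In both genotypes linear RNA was first digested with RNase R. The HuD-bound list came from the striatum of other mice, a line carrying a myc-tagged HuD transgene driven by Camk2a, a promoter of forebrain neurons, and tissue of 3 mice was pooled for each immunoprecipitation. No circRNA of Elavl4 itself was listed, so the knockout was not checked on its own gene here. In tissue RNA, fewer cells of a type and less RNA per cell cannot be told apart.

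HuD is a neuronal RNA-binding protein that attaches to AU-rich stretches of mRNA and is known for stabilizing and promoting the translation of transcripts used in neuronal differentiation and plasticity. A circRNA forms when a splice donor is joined back to an upstream acceptor, which leaves no free ends and makes the ring resistant to exonucleases. An array probe detects the ring through the joined sequence, and the annotation then assigns the ring to a class from its ends. A ring whose end misses an exon boundary by a few bases, retains intron, starts in a neighbouring gene or comes from within a single exon can all be filed as sense overlapping.

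Levels are log2 of the background-corrected intensity after subtraction of each array's 75th percentile over circRNA probes, which thus lies at 0. Members of the deposited tables were selected by the authors on these same 6 arrays, and their changes are given as a description only. The HuD-bound list was made in other mice, and for its members the limma calls at a Benjamini-Hochberg adjusted p under 0.05 are counted. No scan held both genotypes (WT in 1 scan, HuD KO replicates 1 and 2 in a second, and replicate 3 by itself), so scan and genotype cannot be told apart. Across probes, arrays of 1 group correlated at 0.969 to 0.993, and arrays of different groups at 0.835 to 0.891.

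What a sense overlapping junction looks like is seen best where the same gene also gives an exonic ring with almost the same ends. In the lines that follow, 30 bases of each 60-base probe are shown, and capitals mark the stretch that both probes of a pair share. The Aff3 and Magi1 pairs show a shift of a few bases at the junction, the Nbea pair the same with opposite values in HuD KO, and the Arf3 pair 2 sense overlapping rings with 1 common end.
Aff3 mmu_circRNA_18933, sense overlapping: gcaggcagAGAGTGTCTATGAACCGGACAG
Aff3 mmu_circRNA_19966, exonic: gcaggcAGAGTGTCTATGAACCGGACAGGA
Magi1 mmu_circRNA_19425, sense overlapping: ATGAACAGTAGCTTTACAGGCAggcacaac
Magi1 mmu_circRNA_018247, exonic: ATGAACAGTAGCTTTACAGGCAcaacccgg
Nbea mmu_circRNA_19281, sense overlapping: gtcacacaggCACAGGCCTTGTTTGTATGA
Nbea mmu_circRNA_005357, exonic: tgtcaCACAGGCCTTGTTTGTATGAAGTCC
Arf3 mmu_circRNA_29053, sense overlapping: gtcaccgcaattgGGTCAAGTCCTCCATAC
Arf3 mmu_circRNA_009996, sense overlapping: ctcaaaaacaagaaGGTCAAGTCCTCCATA
The Aff3 rings lie at chr1:38534905-38536948 and chr1:38534905-38536946, the Magi1 rings at chr6:93792345-93815828 and chr6:93792346-93815825, the Nbea rings at chr3:55853769-55891679 and chr3:55853770-55891674, and the Arf3 rings at chr15:98740420-98742829 and chr15:98740336-98742829, all on the minus strand. The files name no genome build. Of 2317 exonic circRNAs whose host was found in the GRCm38 gene table, 2314 lay inside that gene. The longest stretch shared by the probes was 52 bases for Aff3, 52 for Magi1, 50 for Nbea and 46 for Arf3. Each ring of these pairs is read by a probe that is largely the same as its partner's.

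Rings with such a close exonic partner were a small part of the class. In 23 sense overlapping circRNAs, 5.46% of the 421, an exonic circRNA of the same host was listed whose ends both lay within 10 bases, and in none of them were both ends identical. All 23 came from 1 of the 3 source catalogues that the annotation cites. That catalogue supplied 96 of the 421 sense overlapping circRNAs and 1 of the 2334 exonic ones. The probes of these pairs shared between 24 and 52 bases.

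Most paired rings had close levels and changes. The median absolute difference between partners was 0.16 in the WT level and 0.12 in the log2 change, and 21 of 23 pairs differed in change by under 0.5. Zfp148, a Kruppel-type transcription factor, had WT levels of 4.73 for its sense overlapping ring (mmu_circRNA_19164) and 4.77 for its exonic ring (mmu_circRNA_000155), with log2 changes of 0.58 and 0.54. Rad52, which takes part in homologous recombination, had WT levels of 4.45 for both rings and log2 changes of 0.37 and 0.43. Mkln1, which encodes muskelin, had log2 changes of 2.43 and 2.48, and Magi1, a synaptic and junctional scaffold, had log2 changes of -2.56 and -2.52. Neither of these Magi1 rings was on the HuD-bound list, and an exonic Magi1 ring that was, mmu_circRNA_40577, had a log2 change of 1.06. Among the 166 other pairs of a sense overlapping and an exonic circRNA of 1 host, the median absolute difference in change was 0.56. How far the common bases let a probe read its partner's ring was not tested.

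The pairs that differed in change by 0.5 or more were Aftph, at 1.25 for mmu_circRNA_19004 and 2.03 for the exonic mmu_circRNA_005474, and Nbea, the only pair with opposite signs. Cdyl had changes of 2.41 and 1.94 and WT levels of 3.03 and 4.28. These pairs were singled out after their values were seen. Neurobeachin is a scaffold protein of vesicle traffic and synapse assembly. The sense overlapping ring mmu_circRNA_19281 had levels of 2.37, 2.47 and 2.13 in WT and 0.46, 0.44 and 0.13 in HuD KO. The exonic ring mmu_circRNA_005357, whose ends differ by 1 and 5 bases, had levels of -0.46, -0.52 and -0.52 in WT and 0.83, 0.69 and 0.15 in HuD KO. The first was thus lower and the second higher in every HuD KO array, with log2 changes of -1.98 and 1.05. Over 19 alternative processings the sense overlapping ring ranged from -2.76 to -1.46 and the exonic ring from 0.27 to 1.57. Another 3 exonic Nbea rings with other ends, mmu_circRNA_016655, mmu_circRNA_015103 and mmu_circRNA_001579, had log2 changes of 1.34, 1.51 and 1.54. These rings are all in the deposited tables, so their directions are a description of what was listed.

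**Figure D1:**
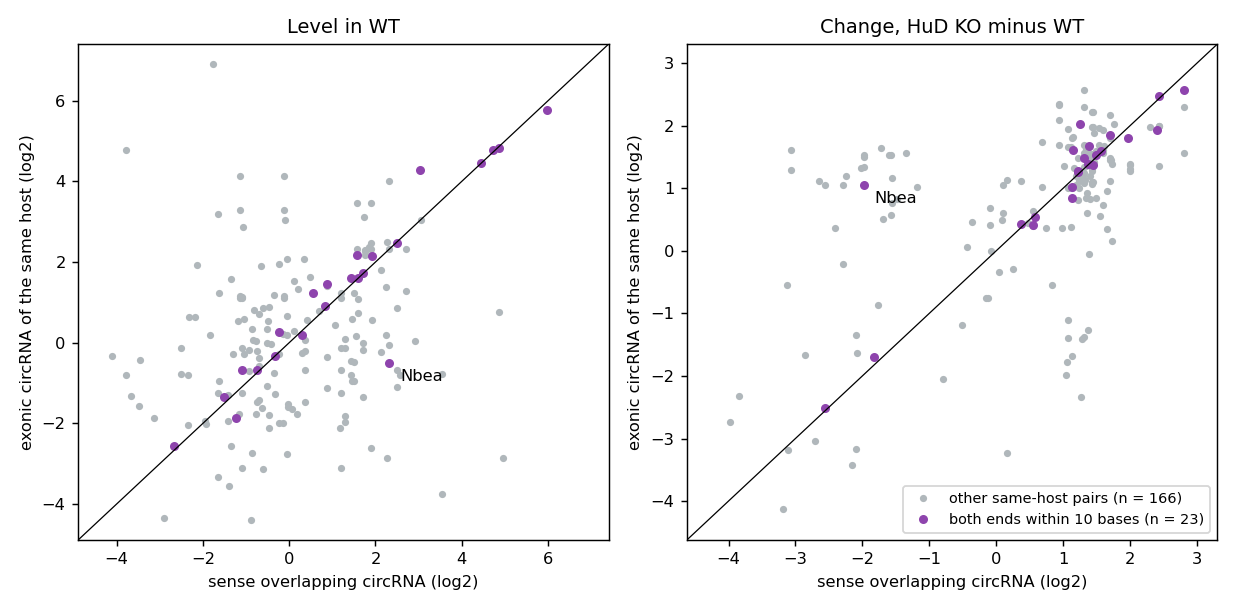
Sense overlapping circRNAs (x axis) against exonic circRNAs of the same host (y axis), as the mean level in WT on the left and the log2 change from WT to HuD KO on the right. Purple points are the 23 pairs with both ends within 10 bases, grey points the 166 other pairs, and the line marks equal values; most purple points lie near the line in both panels, and Nbea lies far from it, as its sense overlapping ring had a log2 change of -1.98 and its exonic ring 1.05.

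Across all hosts with both kinds of ring, 189 pairs from 109 hosts were listed, and 134 of these had both rings in the deposited tables. The same ring can stand in several pairs, and the 189 pairs hold 117 sense overlapping rings, so the pairs are not independent. The 23 pairs with both ends within 10 bases, whose probes share 24 to 52 bases, are among the 189. In 109 of the 134 the rings were listed in the same direction. Chd2, a chromatin remodeller, was among the exceptions, with its sense overlapping ring mmu_circRNA_19463 at -3.06 and its exonic rings mmu_circRNA_41662 and mmu_circRNA_41665 at 1.61 and 1.30. In 29 pairs both rings were HuD-bound. These pairs hold 24 sense overlapping rings, and 4 of the pairs had both ends within 10 bases. The signs were the same in 22 of the 29, counting D7Ertd715e, whose changes of -0.07 and 0.00 do not settle a common sign. In only 1 of the 7 with opposite signs were both rings called by limma. That pair came from Camk2d, the delta subunit of the calcium/calmodulin-dependent kinase. Its changes were 0.83 for the sense overlapping mmu_circRNA_36124 and -0.55 for the exonic mmu_circRNA_36123. How often signs would match from the shares of rises and falls alone was not worked out. The counts of 109 and 22 are thus a description only.

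The spans of sense overlapping circRNAs, taken as the distance between the ends of the ring on the genome, covered a wide range. The median was 9573 nt, the quartiles 2716 and 25052 nt, and the extremes 60 and 506729 nt. Exonic circRNAs had a median of 12791 nt and a shortest span of 110 nt, and intronic circRNAs a median of 3563 nt. Within the class, the median was 10108 nt for lower members, 10729 nt for higher members and 5671 nt for HuD-bound members. In exonic circRNAs the corresponding medians were 9334, 19410 and 11498 nt. The gap in median span between the higher and lower tables was thus wider among exonic than among sense overlapping rings, a difference that was not tested.

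**Figure D2:**
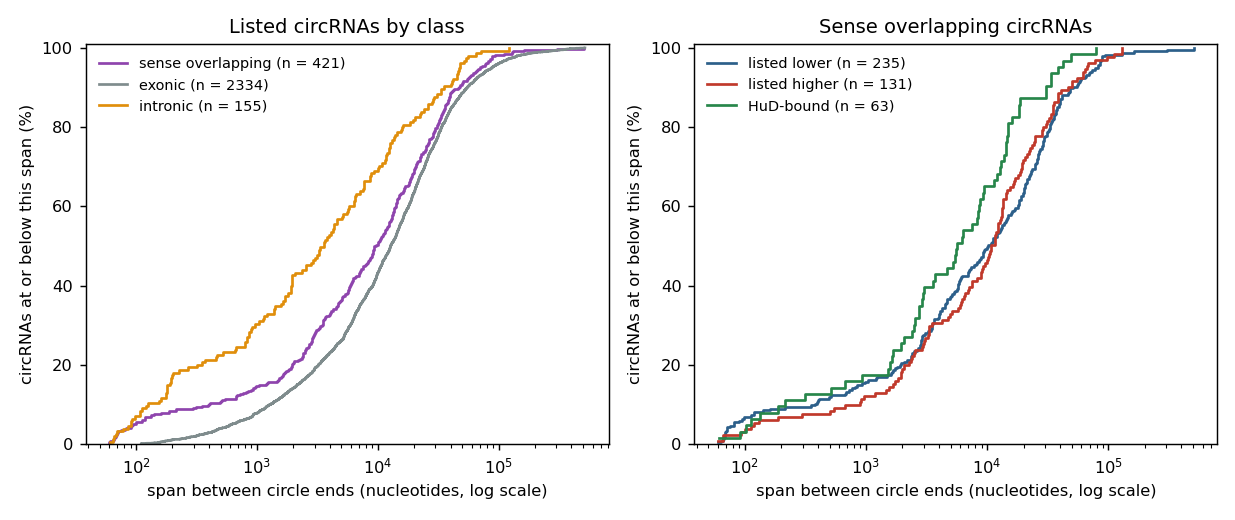
Cumulative share of circRNAs (y axis, percent) at or below a given span (x axis, nucleotides, log scale), for 3 classes on the left and for groups of sense overlapping circRNAs on the right. The sense overlapping curve starts at 60 nt and lies to the left of the exonic curve over most of the range, and the curve of HuD-bound members, with a median of 5671 nt, lies to the left of the others above about that curve's lower quartile of 1986 nt.

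The ends of many sense overlapping rings lay outside the host gene. The host was found in the GRCm38 gene table for 378 of the 421. In 313 of these both ends lay inside the gene, in 52 there was 1 end outside, in 10 the ring contained the whole gene, and in 3 both ends lay on 1 side of it. Rings not contained in their host made up 17.2% of the sense overlapping class, 5.79% of the intronic class and 0.129% of the exonic class. The class is itself assigned from the ends of the ring. Within the sense overlapping class, the share was 24.4% in the lower table, 11.6% in the higher table and 3.39% among HuD-bound members. Rings that also overlapped a further protein-coding gene made up 10.3% of located sense overlapping rings, 1.6% of exonic and 6.61% of intronic ones. Among located members, the share was 17.6% in the lower table and 1.65% in the higher table.

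The longest rings were of this kind. The longest, mmu_circRNA_40611 (chr6:99162838-99669567, 506729 nt), is assigned to Eif4e3, a cap-binding protein, and its span also overlaps the gene of the striatal transcription factor Foxp1. Its levels were 2.72, 2.67 and 2.74 in WT and 1.39, 1.67 and 1.63 in HuD KO, so the HuD KO arrays were all lower. Zfp523 (mmu_circRNA_30389, 304958 nt) overlapped 5 other protein-coding genes and had a log2 change of -1.35. Cpt2, the mitochondrial carnitine palmitoyltransferase, had a ring of 161823 nt (mmu_circRNA_37344) over 3 other genes with a log2 change of -2.77. The fourth, Plcl2 (mmu_circRNA_30581, 130827 nt), lay inside its host and was listed as higher, at 1.14. Whether such rings join transcripts of neighbouring genes cannot be read from the span.

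At the other extreme, 35 sense overlapping rings spanned under 200 nt, 8.31% of the class. The share was 1.07% among exonic and 17.4% among intronic circRNAs, so such short rings were not particular to this class. Of the 35, 21 were in the lower table, 9 in the higher table and 6 on the HuD-bound list, and 23 came from circBase. Their median WT level was 1.17, against -0.31 for longer members and -0.30 for the 25 exonic rings under 200 nt. The shortest were Hist1h1c mmu_circRNA_009340 and Max mmu_circRNA_006173 at 60 nt, Calm3 mmu_circRNA_19450 at 61 nt and Mapkapk2 mmu_circRNA_007599 at 64 nt. At this span a ring is about as long as the 60-base probe that reads it.

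Hist1h1c, which encodes a linker histone and is a gene without introns, had 3 rings between chr13:23739295 and 23739466. All 3 were in the higher table, with log2 changes of 1.32 (mmu_circRNA_009340), 1.39 (mmu_circRNA_012164) and 1.48 (mmu_circRNA_007217). The levels of mmu_circRNA_007217 were 1.35, 1.15 and 1.16 in WT and 2.58, 2.69 and 2.82 in HuD KO, with no overlap between the groups. The rings mmu_circRNA_012164 and mmu_circRNA_007217 share 48 genome positions, so they are not independent, while mmu_circRNA_009340 lies beside them.

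The ribosomal RNA locus on chromosome 17 held another group of short rings. Between positions 39844161 and 39847912, 7 circRNAs assigned to Rn45s, the ribosomal RNA precursor, or to the unnamed transcript XLOC_010800 were listed, 4 of them sense overlapping. The rings on the minus strand assigned to XLOC_010800 had changes of both signs, at 1.16 (mmu_circRNA_014320), 1.34 (mmu_circRNA_005444) and -1.74 (mmu_circRNA_011174). The last had levels of 5.12, 5.32 and 5.46 in WT and 4.21, 3.45 and 3.03 in HuD KO, with HuD KO replicate 1 nearest to WT. The plus-strand ring of Rn45s, mmu_circRNA_000248, had levels of 5.51, 5.49 and 5.82 in WT and 5.13, 5.02 and 4.85 in HuD KO. Its change of -0.61 was the smallest in size among sense overlapping members of the lower table. Ribosomal RNA is encoded in many near-identical copies, so the locus of origin of these rings is uncertain.

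**Figure D3:**
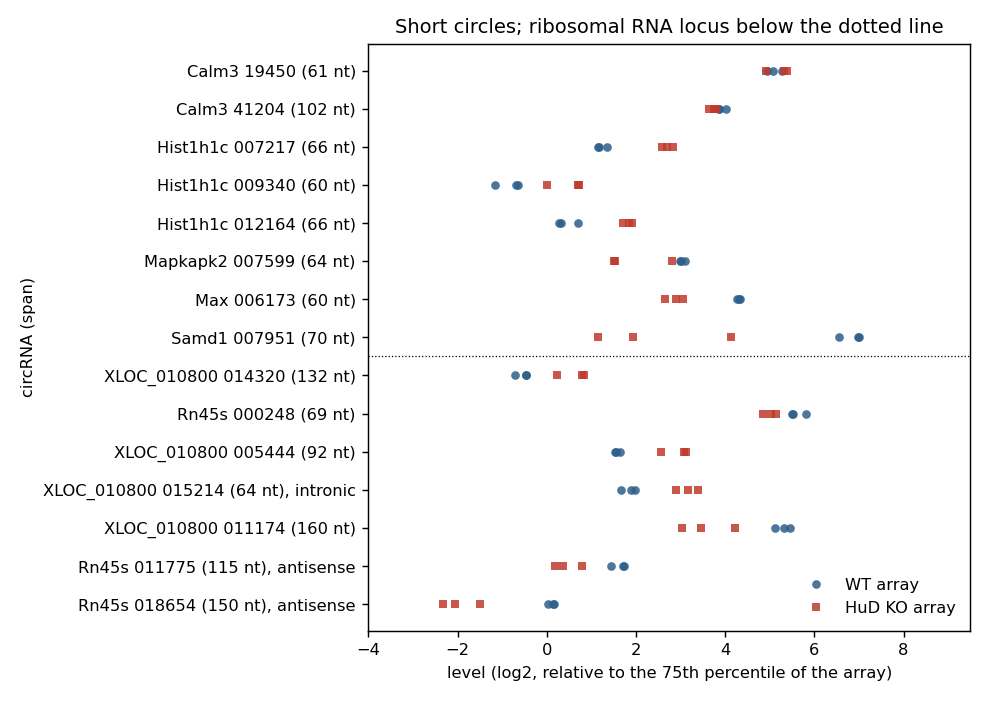
Level on each array (x axis, log2, with each array's 75th percentile at 0) of 8 sense overlapping rings under 200 nt and, below the dotted line, of the 7 rings listed at the ribosomal RNA locus; circles are WT arrays and squares HuD KO arrays. The 3 Hist1h1c rings are higher and Samd1 and Max lower on all HuD KO arrays, the Calm3 ring of 61 nt overlaps between the groups, and the ribosomal rings go in both directions.

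The brightest sense overlapping ring in WT came from Malat1, a nuclear long non-coding RNA. This HuD-bound ring, mmu_circRNA_32201 (chr19:5798035-5799683, 1648 nt), had levels of 8.71, 8.71 and 8.70 in WT and 8.94, 8.81 and 8.62 in HuD KO, which overlap. Inside its span lies mmu_circRNA_013905 (chr19:5798105-5798224, 119 nt), with 6.51, 6.48 and 6.19 in WT and 7.68, 7.62 and 7.56 in HuD KO. The shorter ring was higher in every HuD KO array, while the longer one changed by 0.08 and was not called (limma adjusted p = 0.638). Other bright rings in WT came from Samd1 mmu_circRNA_007951 (6.84), Ankrd12 mmu_circRNA_19197 (5.98) and Rn45s mmu_circRNA_000248 (5.61). Ankrd12, an ankyrin-repeat nuclear cofactor, was in the higher table, with a log2 change of 1.57.

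Of the 63 HuD-bound sense overlapping circRNAs, all 63 were tested, and 18 were called higher and 8 lower in HuD KO. Over the 13445 probes tested, 26.2% were called higher and 37.2% lower. The members' shares were 28.6% higher, which is near that background, and 12.7% lower, which is below it. HuD-bound exonic circRNAs had 44.0% called higher and 14.3% lower of 573 tested. The median log2 change was 0.17 for the sense overlapping members, 0.38 for HuD-bound exonic circRNAs and -0.11 for all probes tested. HuD-bound members had a median WT level of 0.10 against -1.20 for all probes, and the part of this difference in level in the counts was not tested. The split between directions depended on the scaling, with 36 higher and 3 lower without scaling, 29 and 6 after median scaling, and 2 and 31 with scaling on control probes for circRNAs. The share of members called higher was 57.1% unscaled and 46% after median scaling, above the 39.8% and 34.8% of all probes under the same scalings, so its nearness to the background held for the main scaling, quantile normalization (31.7% and 34.3%) and control probe scaling (3.17% and 4.55%). The share called lower was below that of all probes under each of these scalings. With array weights, with normexp correction or without HuD KO replicate 3, the share called higher was also above that of all probes. Without WT replicate 1, 5 were called lower, and with scan as a random block 12 were called higher and 5 lower.

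**Figure D4:**
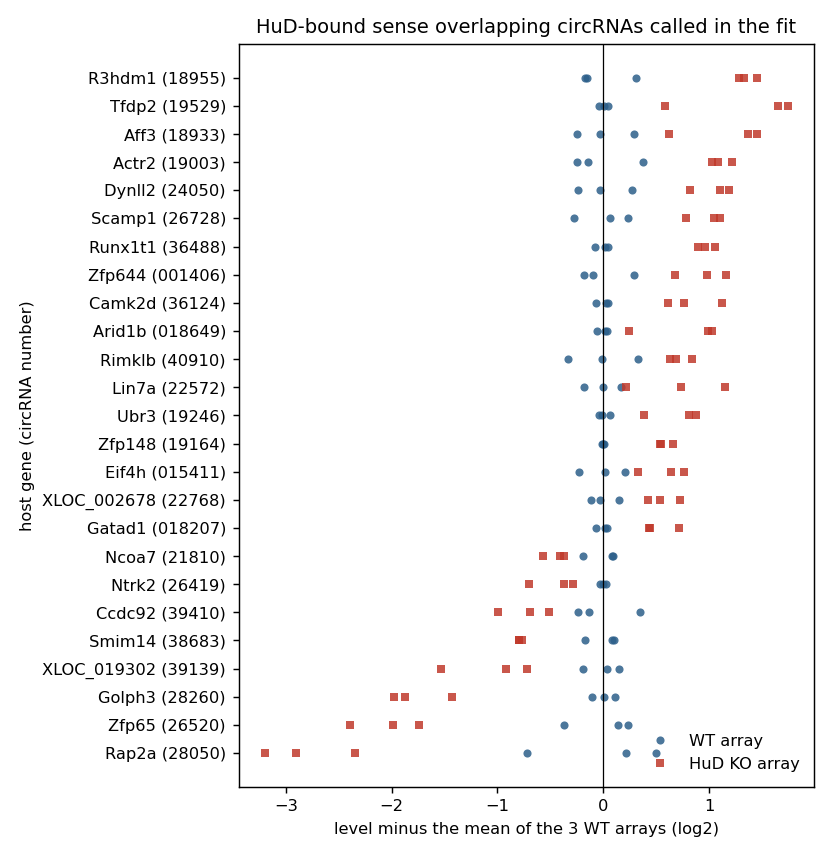
Level of 25 of the HuD-bound sense overlapping circRNAs called by limma, on each array (x axis, log2, minus the mean of the 3 WT arrays), ordered by change. Circles are WT arrays and squares HuD KO arrays; the 17 rings at the top were called higher, from R3hdm1 at 1.36 downward, and the 8 at the bottom lower, to Rap2a at -2.81.

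Of the HuD-bound rings, Rap2a, Zfp65 and Golph3 fell furthest. Rap2a, a small GTPase of the Ras family, had a ring of 514 nt (mmu_circRNA_28050) at 0.21, -0.07 and -1.01 in WT and -3.49, -3.19 and -2.64 in HuD KO. All HuD KO arrays lay below all WT arrays although WT replicate 3 was low, and the change was -2.81 ± 0.34 (SE, limma adjusted p = 0.000296). Zfp65 (mmu_circRNA_26520), a zinc finger protein, was at 1.86, 1.77 and 1.26 in WT and -0.36, -0.11 and -0.76 in HuD KO. Its change was -2.04 ± 0.23 (SE, limma adjusted p = 0.000198). Golph3, a Golgi phosphoprotein that binds phosphoinositides, had a ring with 1 end outside the gene (mmu_circRNA_28260) and a change of -1.76 ± 0.18 (SE, limma adjusted p = 0.000137).

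XLOC_019302 (mmu_circRNA_39139), an unnamed locus on chromosome 5, was the brightest of the HuD-bound rings that fell, at 3.16, 3.50 and 3.39 in WT and 2.63, 2.43 and 1.82 in HuD KO. These first 4 also stand in the deposited lower table. Smim14, a small integral membrane protein, fell by 0.79 on the log2 scale (mmu_circRNA_38683) and Ccdc92, a coiled-coil protein, fell by 0.72 (mmu_circRNA_39410). Ntrk2, the receptor TrkB of brain-derived neurotrophic factor, fell by 0.45 (mmu_circRNA_26419) and Ncoa7, a nuclear receptor coactivator, fell by 0.44 (mmu_circRNA_21810). The calls of Ccdc92, Ntrk2 and Ncoa7 were lost under quantile normalization, where their changes were -0.02, -0.35 and -0.06, and those of XLOC_019302 and Smim14 were lost with no scaling. Ccdc92 was not called without WT replicate 1. Ncoa7 was not called without HuD KO replicate 1 or 2 or WT replicate 1 or 2, and Ntrk2 was not called without HuD KO replicate 2 or any 1 of the WT arrays.

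Calm3, which encodes the calcium sensor calmodulin, had a pair of HuD-bound rings which were not called. Its 61-nt ring was at 5.08, 4.94 and 5.28 in WT and 5.38, 5.31 and 4.91 in HuD KO, and its 102-nt ring (mmu_circRNA_41204) at 3.87, 3.87 and 4.01 in WT and 3.74, 3.80 and 3.64 in HuD KO. The groups overlapped in the first, whereas all HuD KO arrays lay below all WT arrays in the second. The changes were 0.10 ± 0.18 and -0.19 ± 0.13 (SE, limma adjusted p = 0.638 and 0.238).

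Among the HuD-bound rings that rose, R3hdm1, a protein with an R3H nucleic acid binding domain, rose by 1.36 ± 0.17 (SE; mmu_circRNA_18955). Tfdp2, a partner of E2F transcription factors, rose by 1.32 ± 0.30 (mmu_circRNA_19529), with HuD KO replicate 3 at 2.25 and the other arrays of that group at 3.32 and 3.42. Aff3, a nuclear transcription elongation factor, rose by 1.14 ± 0.25 (mmu_circRNA_18933), again with replicate 3 lowest, at 2.53 against 3.36 and 3.28. These 3 also stand in the deposited higher table. Of the remaining rises, Actr2, a subunit of the actin-nucleating Arp2/3 complex, rose by 1.12 (mmu_circRNA_19003), and Dynll2, a light chain of dynein, rose by 1.03 from a WT level of 5.51 (mmu_circRNA_24050).

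Runx1t1, a transcriptional corepressor, rose by 0.98 with little spread, at 2.49, 2.62 and 2.59 in WT and 3.63, 3.47 and 3.53 in HuD KO (mmu_circRNA_36488). Scamp1, a secretory carrier membrane protein, also rose by 0.98 (mmu_circRNA_26728). Lin7a, a presynaptic and postsynaptic PDZ scaffold, rose by 0.70 (mmu_circRNA_22572), and its HuD KO replicate 3 at -1.52 lay next to WT replicate 3 at -1.57. Lin7a was not called without any 1 of the arrays other than HuD KO replicate 3. With scaling on control probes, the calls of Tfdp2, Aff3, Actr2, Dynll2, Runx1t1, Scamp1, Camk2d and Lin7a were lost, and R3hdm1 kept its call.

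Members without a call include the Arf3 pair, whose probes were shown above. Arf3 is a Golgi GTPase, and its rings had changes of 0.47 ± 0.22 (mmu_circRNA_29053) and 0.45 ± 0.20 (mmu_circRNA_009996; SE, limma adjusted p = 0.0898 and 0.0807). In both, HuD KO replicate 3 lay within the range of the WT arrays and the other HuD KO arrays lay above all WT arrays. Without replicate 3 of HuD KO, the changes were 0.71 and 0.67 and both were called. Tspan7, a tetraspanin, had a ring (mmu_circRNA_45336) at 2.82, 2.92 and 3.00 in WT and 2.24, 2.10 and 3.94 in HuD KO, so replicate 3 went against the others, and without it the ring was called lower, at -0.74. The second ring of XLOC_002678 shares its start with the first, and the changes were 0.56 (mmu_circRNA_22768, called higher, but not without WT replicate 2) and 0.34 (mmu_circRNA_22769, not called, but called at 0.39 without HuD KO replicate 3).

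**Figure D5:**
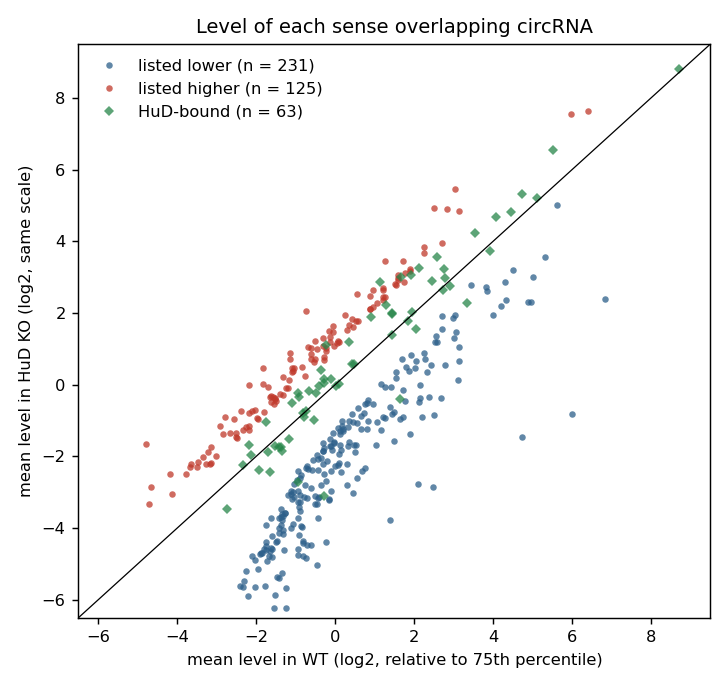
Mean level of each sense overlapping circRNA in WT (x axis) and in HuD KO (y axis), both on the log2 scale with each array's 75th percentile at 0. Blue and red points were listed as lower or higher on these same arrays, so their separation from the line of equal levels is built in, whereas green diamonds are the 63 HuD-bound members; Malat1 is the diamond at the upper end, on the line.

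Among deposited-only members well above background on all 6 arrays, a limit that leaves out large falls of dim rings, Hic2 and Kcnq1ot1 were among those with the largest falls. Hic2, a transcriptional repressor, had a ring (mmu_circRNA_29357) at 4.62, 4.99 and 4.62 in WT and -2.19, -2.25 and 0.06 in HuD KO. The imprinted antisense RNA Kcnq1ot1 had a ring (mmu_circRNA_42484) at 2.61, 2.51 and 2.32 in WT and -3.45, -3.11 and -1.95 in HuD KO. In both, the HuD KO arrays lay far below WT and replicate 3, the array scanned alone, was the highest of them.

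Samd1 mmu_circRNA_007951 had the same pattern, at 6.55, 6.99 and 6.97 in WT and 1.14, 1.93 and 4.14 in HuD KO. The log2 changes of Hic2, Kcnq1ot1 and Samd1 were -6.20, -5.32 and -4.43, with SEs of 0.57, 0.35 and 0.66. Lrrc28 (mmu_circRNA_41633) and Rsrc1 (mmu_circRNA_35534), a splicing-related protein, followed at -3.48 and -3.35. For Rsrc1 the HuD KO arrays lay close together, at -0.78, -0.91 and -0.82, against 2.37, 2.81 and 2.35 in WT. HuD KO replicate 3 moved apart from the others in some of these rings and not in all.

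Under the same limit, the largest rises among deposited-only members were smaller in size. Strbp, a spermatid perinuclear RNA-binding protein also expressed in brain, had a ring (mmu_circRNA_19241) at -0.73, -0.68 and -0.85 in WT and 2.42, 2.30 and 1.44 in HuD KO. Cdyl, a chromodomain protein of the nucleus, had a ring (mmu_circRNA_19091) at 2.90, 2.81 and 3.39 in WT and 6.14, 5.65 and 4.55 in HuD KO. Mkln1 (mmu_circRNA_19411), Nkain2 (mmu_circRNA_21821), a membrane protein that interacts with the sodium pump, BC062895 (mmu_circRNA_39744) and XLOC_024544 (mmu_circRNA_43334) had log2 changes of 2.43, 2.30, 2.18 and 2.17. Across the 129 tested members of the higher table the changes ran from 0.90 to 3.14, and the median change across the 235 of the lower table was -2.25.

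In WT the median level was -0.13 for sense overlapping members of the lower table and -0.60 for those of the higher table. Of the 235 members of the lower table, 185 were well above background on all 6 arrays, and 4 were not well above background on any HuD KO array. For these 4 only a bound can be given, set by the lowest signal among probes well above background on each array. AK081271 (mmu_circRNA_41016) was at least 16.2-fold lower in HuD KO, 4930554G24Rik (mmu_circRNA_22916) at least 12.8-fold, F630206G17Rik (mmu_circRNA_19010) at least 6.92-fold and AK133405 (mmu_circRNA_42730) at least 5.73-fold. In the higher table, 126 of 131 were above background on all 6 arrays. A further 2 members of that table, from Auh and RP23-292F17.7, could not be tested because every HuD KO spot carried the outlier flag.

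Several hosts contributed more than 1 sense overlapping ring. There were 23 such hosts with 48 rings, and in 20 hosts the changes of all rings had 1 sign. The exceptions were XLOC_010800, Calm3 and Camk2d. Where all rings of a host stood in the same deposited table, as for Atrnl1, Mettl9 and Strbp, the common sign was set by that selection. The count is thus a description only. Camk2d had a ring of 129276 nt with 1 end outside the gene (mmu_circRNA_36122), at -0.81, -0.58 and -1.14 in WT and -4.10, -4.16 and -3.63 in HuD KO. Its HuD-bound ring of 5572 nt (mmu_circRNA_36124) was at 0.29, 0.39 and 0.41 in WT and 1.12, 0.97 and 1.48 in HuD KO. The rings occupy separate stretches of the gene, and the long one was lower and the short one higher on all HuD KO arrays.

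The host lists that follow hold few HuD-bound members each, and over all probes tested 26.2% were called higher and 37.2% lower. No trend is read from their counts. By the function of the host, the calcium and calmodulin list held 9 rings from 7 genes, 6 of them HuD-bound, of which 2 were called higher, Camk2d among them, and 0 lower. Outside the bound list, Cacna2d1, an auxiliary calcium channel subunit, was listed as higher (mmu_circRNA_38126, 1.60), and Cacna1e, an R-type calcium channel subunit, as lower (mmu_circRNA_21040, -1.48). The list of synaptic receptors and scaffolds held 7 rings, 6 of them HuD-bound, with Lin7a called higher and Ntrk2 lower. Gria2, an AMPA receptor subunit, had a change of 0.48 ± 0.19 (SE; mmu_circRNA_35637, limma adjusted p = 0.0624) and was not called, except without WT replicate 3, where the change was 0.65. Magi1 was the member of that list in the lower table.

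The cytoskeleton and motor list held 6 rings, with Actr2 and Dynll2 called higher among its 3 HuD-bound members and none called lower. Its other members in the tables were all lower, namely the dynein heavy chain Dnah7a with a pair of rings (mmu_circRNA_20079 at -3.28 and mmu_circRNA_18936 at -2.81) and the kinesin Kif3c (mmu_circRNA_24521 at -1.69). The small GTPase list held 9 rings, 3 HuD-bound, with Rap2a called lower and 0 called higher. In the tables it included Rab11fip2 (mmu_circRNA_32843 at 1.72), an effector of recycling endosomes, Iqsec2 (mmu_circRNA_45839 at -2.17), a synaptic Arf exchange factor, and Rab10os (mmu_circRNA_24517 at -2.02), which is antisense to Rab10 and encodes no GTPase.

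The ubiquitin list held 10 rings with 4 HuD-bound, of which Ubr3 (mmu_circRNA_19246 at 0.69) was called higher and 0 lower. Fbxl5 (mmu_circRNA_007662 at 1.73) and Rnf122 (mmu_circRNA_42738 at -2.51) stood in opposite tables, and Trim12a (mmu_circRNA_19470), at -4.46, -4.13 and 0.29 in HuD KO, again had replicate 3 nearest to WT. The RNA-binding list held 7 rings with 3 HuD-bound, of which Eif4h (mmu_circRNA_015411 at 0.58), a helper of the initiation helicase, was called higher. Rbm4 (mmu_circRNA_19218 at 1.40), a splicing regulator, was in the higher table. The zinc finger list held 16 rings, 8 in the lower and 6 in the higher table, and of its 3 HuD-bound members Zfp644 (0.94) and Zfp148 (0.58) were called higher and Zfp65 lower.

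Unnamed loci made up 50 rings, 35 in the lower and 13 in the higher table, with a median log2 change of -1.89. The whole class had 235 in the lower and 131 in the higher table and a median of -1.32. As most of these rings were selected by the tables, their median mainly restates that split. The hosts were also compared with short lists of genes that mark striatal cell types. How many hosts would be found from the length of these lists alone was not worked out, so no absence is read from the count. None of the markers of medium spiny neurons, oligodendrocytes, microglia or endothelium was a host, and of the astrocyte markers only Slc6a11, a GABA transporter, was one. Its HuD-bound ring of 133 nt (mmu_circRNA_40770) was at 1.30, 1.20 and 1.78 in WT and 1.42, 1.63 and 1.10 in HuD KO, which overlap. Sry, known for an abundant circular RNA in testis, had a ring in the lower table (mmu_circRNA_19557, named after its values were seen), with levels of -0.23, -0.43 and -0.74 in WT and -4.85, -5.05 and -5.22 in HuD KO, where 2 of 3 arrays were well above background.

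AU-rich stretches were then looked for in the probe sequences, because HuD binds such RNA. The motifs ATTTA and TTTTT were searched in the 60 bases of each probe. Where a probe's end matched the promoter window of its own host gene, all 10 matches were on the gene's strand, so the probe was read as the sense sequence. ATTTA was present in 5 of 63 HuD-bound sense overlapping probes (7.94%), in 4.75% of all 421 and in 4.53% of HuD-bound exonic probes. TTTTT was present in 7.94% of HuD-bound sense overlapping probes, 7.36% of all 421 and 2.96% of HuD-bound exonic probes. On the opposite strand ATTTA was found in 3.17% and TTTTT in 9.52% of the HuD-bound sense overlapping probes. In HuD-bound exonic probes these opposite-strand shares were 3.48% and 8.71%. The 5 HuD-bound probes with ATTTA are shown over 30 bases, with the motif in capitals.
Hs2st1 mmu_circRNA_000354: ttctacgaaaagATTTAccctaagtcgaac
Gria2 mmu_circRNA_35637: tgtcccttacggATTTActgatggagacct
Tspan7 mmu_circRNA_45337: ctcatcagatcaATTTAaaaatgggtgtgg
Nptn mmu_circRNA_44291: aaagcatgccttATTTAgcctctcctataa
Hlf mmu_circRNA_24072: tgATTTAaggaaggagctgggcaaatgcaa
The hosts are a heparan sulfate sulfotransferase (chr3:144434481-144465285), the AMPA receptor subunit (chr3:80688597-80722193), the tetraspanin (chrX:10596275-10596461), the cell adhesion protein neuroplastin (chr9:58618662-58652009) and a PAR bZIP transcription factor (chr11:90340786-90345978). Their log2 changes were 0.10, 0.48, -0.12, 0.17 and 0.48, and none of the 5 was called by limma. A probe covers only the junction, and the motif can lie elsewhere in the ring. The GC share of the probes had a median of 45.0% in both the sense overlapping and the exonic class.

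The annotation of the deposited tables names up to 5 miRNAs with a predicted element in each ring, and these differed in share between the class and exonic rings. Of the 366 sense overlapping members with this annotation, 79 (21.6%) named mmu-miR-7092-3p, 62 (16.9%) mmu-miR-5110 and 52 (14.2%) mmu-miR-1187. Among 1839 exonic circRNAs the shares were 8.05%, 2.01% and 0.218%, and among 142 intronic circRNAs 12.7%, 10.6% and 12%. At least 1 of these 3 was named by 44.5% of the sense overlapping members and by 10.1% of the exonic circRNAs. Members that named any of the 3 had a median span of 24572 nt, against 3928 nt for the rest. Mature sequences from RefSeq (GRCm38.p6) were found for 6 of the 12 most frequent miRNAs, so no common trait is read from them. Of these, 5 follow, with the seed, bases 2 to 8, in capitals.
mmu-miR-7092-3p: uGUUCUUUguuuuguuugccuuag
mmu-miR-5110: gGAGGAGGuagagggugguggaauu
mmu-miR-1187: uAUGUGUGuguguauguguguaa
mmu-miR-7661-5p: aAGAAAGAaaccuggaguuuaaagu
mmu-miR-8100: aGGAGGAAagggagcaagcaggu
No seed is common to any 2 of them. The mmu-miR-7661-5p element was named in 11.2% of sense overlapping, 0.218% of exonic and 7.04% of intronic circRNAs. For mmu-miR-8100 these shares were 7.65%, 0.489% and 4.93%. Names of mmu-miR-466e-5p, a further frequent one, occurred in 33 sense overlapping members, in 0 of the exonic and in 4 of the intronic circRNAs. For the 3 most frequent miRNAs, the shares among members of the lower and higher tables were 23.4% and 18.3% for mmu-miR-7092-3p, 17% and 16.8% for mmu-miR-5110 and 12.8% and 16.8% for mmu-miR-1187. Wider gaps were seen for mmu-miR-1249-5p (11.5% and 3.82%), mmu-miR-6981-5p (12.3% and 5.34%) and mmu-miR-6953-5p (11.5% and 5.34%). Intronic circRNAs thus also named these miRNAs more often than exonic ones, and the differences between classes were not tested. These elements are predictions in the annotation, and no miRNA was measured on the arrays.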

How the data were processed

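Striatum samples, 3 HuD KO and 3 WT, were measured on 1-colour circRNA arrays, scanned and extracted by the authors with Feature Extraction 11.0.1.1 (Agilent). Deposited values are, for each spot, the intensity after the scanner software's background correction, not normalized between arrays. The deposited tables of lower and higher circRNAs gave class, host, positions, probe sequence and predicted miRNA elements. Per the file headers they list a fold change of 2 and p of 0.05. Their 24 columns of values per sample, and the columns of fold changes, p-values and FDR, were not used. The study's HuD-bound list gave membership and annotation only. The submitters' processing notes name limma.

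Spots flagged as outliers were left out, each array's 75th percentile over the circRNA probes was subtracted on the log2 scale, and a probe was kept if all 3 arrays of either genotype were well above background. For the 13445 probes with a value in both groups, limma 3.58.1 (R 4.3.3) was fitted to all 6 arrays (lmFit, then eBayes; no covariate, two-sided), with Benjamini-Hochberg adjustment over all probes. In simulated data for HuD KO against WT over 13338 probes, 56 of 100 probes changed by 1 and 93 of 100 changed by 2 on the log2 scale were called, with 14 false calls. The other simulated probes were left unchanged, whereas in the data 26.2% were called higher and 37.2% lower. The adjustment is stricter where few probes change, so these recovery rates do not carry over to the real fit. The labels do not state that each sample is a separate mouse, so p-values measure the spread between these samples, whose number limits the precision. The 75th percentile lay between 142.3 and 163.6 in WT and between 179.6 and 272.6 in HuD KO, a group difference that the main scaling removes. Between 84.0% (HuD KO replicate 1) and 96.7% of probes were well above background.

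A host end was counted as inside the gene with a tolerance of 5 bases. Named circRNAs were the members both bound and deposited, the 8 largest bound rises and falls past the threshold, the 6 largest deposited-only rises and falls among probes above background on all 6 arrays, hosts with 3 or more members or with a bound and another member, the 4 shortest and 4 longest spans, the 6 brightest in WT, and up to 4 examples per host list. Members and lists were chosen with earlier results of these data known. Protein sequences were not used here. Some circRNAs that these rules name are not reported here.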

Additional observations from a re-analysis of the deposited data

How the results depend on the processing

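The number of HuD-bound sense overlapping circRNAs called higher, 18 in the values reported, became 29 with median scaling, 36 unscaled, 2 with control probe scaling and 30 with array weights. The number called lower, 8 as reported, became 3 unscaled, 31 with control probe scaling and 5 with scan as a random block. Without single arrays the counts ranged from 14 to 25 higher and from 5 (without WT replicate 1) to 11 lower. The median change of 0.17 became 0.37 with median scaling, 0.69 unscaled and -0.62 with control probe scaling, and ranged from 0.14 to 0.22 without single arrays. The median over all probes was then 0.09, 0.41 and -0.89, against -0.11 as reported and 0.12 after quantile normalization. Over all probes, 3522 higher calls became 5348 unscaled and 612 with control probe scaling, and 4997 lower calls became 2552 and 8478. Without single arrays these ranged from 2753 to 3879 higher and from 4331 to 5291 lower. Of the 26 called HuD-bound members, 26 kept call and direction under array weights, 20 after quantile normalization, 17 with scan as a random block and 10 with control probes. Single rings that reversed were Ncoa7 (0.07) and Ntrk2 (0.07) unscaled, and XLOC_002678 mmu_circRNA_22768 (-0.22) and Lin7a (-0.08) with control probe scaling. The causes were not tested. Same-numbered arrays did not deviate together (correlations -0.00937, -0.0292 and -0.0782), and nothing else pairs them. A fit with a replicate block called 17 members higher and 7 lower, with a median change of 0.17, and lost the calls of Ncoa7 (-0.44), Ntrk2 (-0.45) and Lin7a (0.70). The normexp correction used the median signal of the spots, since no mean signal was given, and called 26 higher and 8 lower with the 75th percentile. Of 13445 probes it called 2913 higher and 5560 lower, so the members' share called higher was above that of all probes. With array weights, 30 of 63 members and 4791 of 13445 probes were called higher. Without HuD KO replicate 3, these were 25 of 63 and 3879 of 13440.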
